A study of Homo sapiens with 8 samples.

Results

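The genes of the tricarboxylic acid (TCA) cycle and of fatty acid oxidation were examined as a group of 40 genes, chosen by name because they are well-known targets of estrogen-related receptors in other tissues. All 40 were among the 23391 genes of the deposited count table, and 39 of them were expressed enough to be tested, which required 1 cpm, a count scaled to the size of its library, in 2 libraries or more. The question was whether Esrrb, alone or together with its ligand, raised these genes. The libraries came from DU145, a human prostate cancer cell line, after stable transfection. Pooled transfected cells carried either the empty pcDNA3.1-zeo(+) vector (DU145-pc3.1) or the Esrrb expression vector (DU145-Esrrb), and both had been selected with Zeocine. The cells were left untreated or was incubated with 3 μM DY131, a synthetic ligand of Esrrb and Esrrg, in charcoal-stripped serum, for a time that is not given in the sources used here. Each of the 4 groups (DU145-pc3.1, DU145-Esrrb, DU145-pc3.1+DY131 and DU145-Esrrb+DY131) had 2 biological replicates, and p-values measure the spread between these libraries. Such p-values do not separate Esrrb from other differences between the pooled cells that carried each vector.

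The TCA cycle oxidises acetyl-CoA in the mitochondrial matrix and hands electrons to the respiratory chain. Its acetyl-CoA comes from pyruvate, through the pyruvate dehydrogenase complex, or from fatty acids, which enter mitochondria by the carnitine shuttle and are shortened by beta-oxidation. Estrogen-related receptors are orphan nuclear receptors that bind an extended half-site in DNA, and with coactivators of the PGC-1 family they drive these enzymes in heart, muscle and brown fat.

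The extended half-site, spelled TNAAGGTCA, was looked for on both strands in promoter windows of 300 bases, from 250 bases before to 50 bases after each gene start (RefSeq, GRCh38.p14). Windows were found for 36 of the 40 genes. The full element was in 0 of the 46 windows of these genes, and in 0.951% of all 35116 windows. The core alone, AAGGTCA, which lies within the full element and was searched after the first result was seen, was in 1 of the 46 windows (2.17%) and in 3.92% of all windows. That window belonged to SUCLA2, which encodes the ADP-forming beta subunit of succinyl-CoA ligase. Its site is shown because it is the single promoter match among the members. It lies at chr13:48001440-48001466 (GRCh38.p14), is printed 5′ to 3′ on the minus strand, the strand of the gene, and begins its core 183 bases before the start. Capitals mark the core.
SUCLA2 core site: cccagttccaAAGGTCAaagcttgctc
No match says only that these letters are not in this window.

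Between 7858743 and 11551690 reads were assigned to genes in each library, with the lowest totals (7858743 and 9054498) in DU145-Esrrb+DY131. ESRRB, the transgene, had 3 and 0 raw counts in DU145-pc3.1 and 104 and 99 in DU145-Esrrb. It had 0 and 1 in DU145-pc3.1+DY131 and 105 and 143 in DU145-Esrrb+DY131, as labelled. These counts are not scaled to library size. All 5 epithelial markers passed the minimum, with summed levels of 2500 to 3160 cpm. Of 5 androgen-responsive luminal markers, 1 passed it and 2 were at 0 in every library (summed levels 30.4 to 49.8 cpm). Of 5 immune markers, 2 passed it and 2 were at 0 in every library (59.7 to 94 cpm). Of 5 fibroblast markers, 1 passed it and 1 was at 0 in every library (2.87 to 5.79 cpm). In the DU145-Esrrb+DY131 libraries, genes whose transcripts hold many exon junctions were low. Spearman's correlation across genes between the share of 50-base windows that cross a junction and the deviation from the DU145-pc3.1 mean was -0.376 and -0.38 in these libraries, and between -0.0432 and 0.0432 in the other 6. The TCA and fatty acid oxidation genes had a median share of 23.08% (5.597 to 54.28%), compared with 14.38% over 13606 tested genes, so counts that rest on the DU145-Esrrb+DY131 libraries, and the values of most genes described with them, are also given with an offset for this share, a correction fitted in each library across genes. In such bulk libraries, a change in cell composition and a change of RNA per cell cannot be told apart.

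In untreated DU145-pc3.1 cells the highest levels per transcript length were those of MDH1 (184.6 cpm per kb), ACADVL (150.0), CS (119.3) and MDH2 (111.5). The lowest among tested genes were PDK4 (1.541), CPT1B (3.106) and ETFDH (3.414). ACADL, the long-chain acyl-CoA dehydrogenase, was below the minimum and not tested. It had 1 and 5 counts in DU145-pc3.1, 11 and 11 in DU145-Esrrb, 1 and 1 in DU145-pc3.1+DY131 and 5 and 5 in DU145-Esrrb+DY131. These few counts were higher with Esrrb than without it, both in untreated and in DY131-treated cells. Summed over the 39 tested genes, TMM-normalized levels were 3315 and 3382 cpm in DU145-pc3.1 and 3320 and 3274 cpm in DU145-Esrrb. They were 3106 and 3231 cpm in DU145-pc3.1+DY131, and 2583 and 2588 cpm in DU145-Esrrb+DY131. Both DU145-Esrrb+DY131 libraries were thus below the other 6, while the sums of DU145-Esrrb and DU145-pc3.1 overlapped. The beta-oxidation enzymes made up 1098 and 1135 cpm of the sum in DU145-pc3.1, and 743.9 and 729.4 cpm in DU145-Esrrb+DY131. None of these sums carries the offset for exon junctions. For DY131 in DU145-Esrrb cells, the median Log2FC of the beta-oxidation genes was -0.68 without the offset and -0.24 with it.

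**Figure D1:**
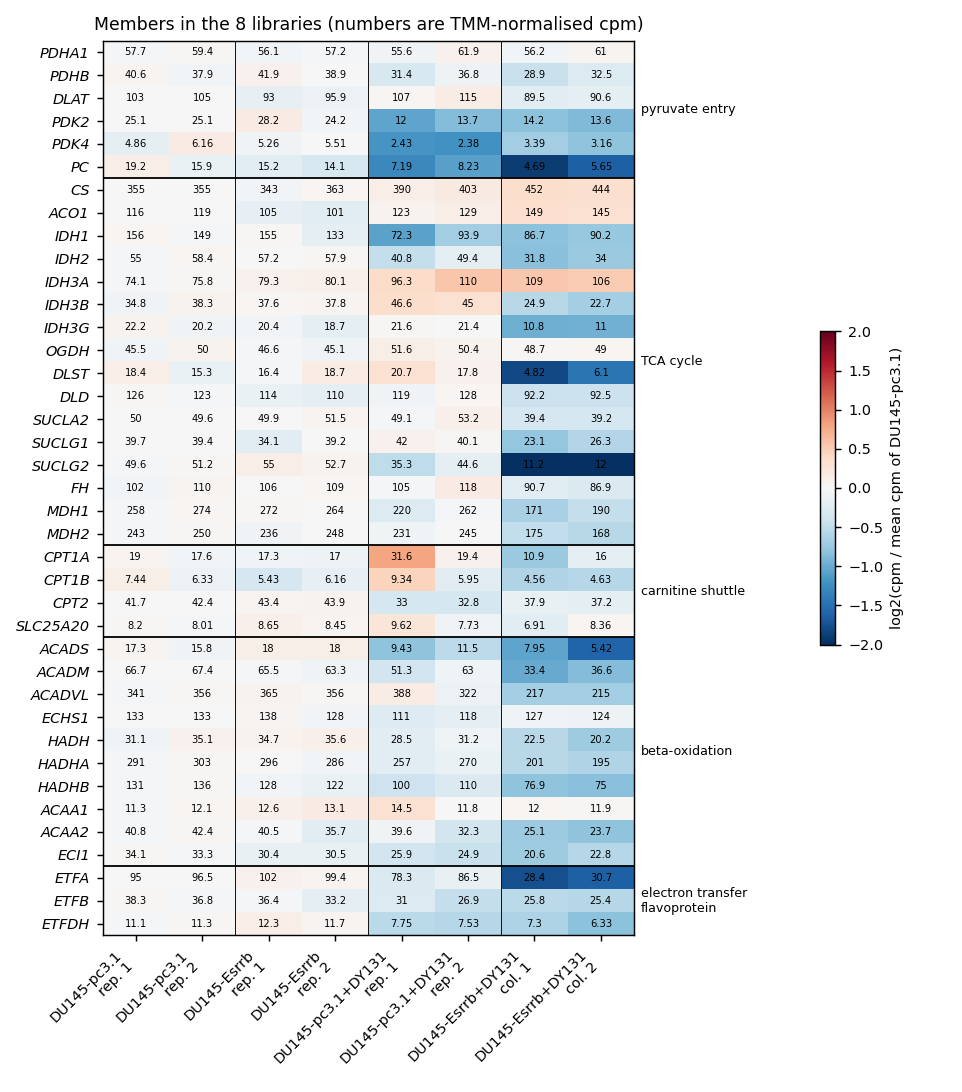
Level of each of the 39 tested genes (rows, by role) in the 8 libraries (columns). Numbers are TMM-normalized cpm, and colour is log2 of the cpm over the DU145-pc3.1 mean. The first 4 columns are near white, and the DU145-Esrrb+DY131 columns are mostly blue, with SUCLG2 at 11.2 and 12.0 cpm.

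With Esrrb alone, the expression of the tested genes stayed close to that of control cells, in every role. ACADL, which was not tested, had few counts that were higher with Esrrb, as given above. In DU145-Esrrb against DU145-pc3.1, 0 of 39 passed edgeR's quasi-likelihood test at an adjusted p under 0.05, where 4.18% of all 13856 tested genes did, 1.68% higher and 2.5% lower. Likewise 0 passed both this threshold and 2-fold, where 0.397% of all tested genes were lower by as much. At an unadjusted p under 0.05 there were 3 (ACO1, DLD and DLAT, all with negative values). The exact test of edgeR also gave 0, with 3 at an unadjusted p under 0.05, and DESeq2 gave 0, with 1. The median Log2FC was -0.0083, against 0.0012 for all tested genes, and single values ran from -0.26 for PC to 0.13 for ACAA1. The 95% intervals of all 39 genes lay within 2-fold in either direction, and those of 38 within 1.5-fold. The count was 1 without replicate 1 of DU145-pc3.1+DY131 and 2 without replicate 2, all lower.

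Well-known targets of estrogen-related receptors in other tissues were among these genes. PDK4, a kinase that shuts down pyruvate dehydrogenase, was at 4.86 and 6.16 cpm in DU145-pc3.1 and 5.26 and 5.51 cpm in DU145-Esrrb (Log2FC -0.04, 95% interval -0.45 to 0.38). ACADM, the medium-chain acyl-CoA dehydrogenase, was at 66.7 and 67.4 and at 65.5 and 63.3 cpm in the same groups (Log2FC -0.06, 95% interval -0.24 to 0.13). The PDK4 libraries of the groups overlapped, and both DU145-Esrrb libraries were slightly below the DU145-pc3.1 libraries for ACADM, without passing the test (adjusted p = 0.8). CPT1A, the liver-type carnitine palmitoyltransferase that starts the carnitine shuttle, had 19.0 and 17.6 cpm without and 17.3 and 17.0 cpm with Esrrb (95% interval -0.50 to 0.31 on the log2 scale). CS, citrate synthase, had 355 and 355 cpm in DU145-pc3.1 against 343 and 363 cpm in DU145-Esrrb, with an interval of -0.13 to 0.11. IDH3A, the catalytic subunit of NAD-dependent isocitrate dehydrogenase, went from 74.1 and 75.8 cpm to 79.3 and 80.1 cpm, with an interval of -0.07 to 0.24. The DU145-Esrrb libraries were both a little higher for IDH3A, but the difference did not pass the test (adjusted p = 0.599). MDH2, the mitochondrial malate dehydrogenase, was at 243 and 250 cpm in control cells and at 236 and 248 cpm with Esrrb, and its interval was -0.15 to 0.10.

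**Figure D2:**
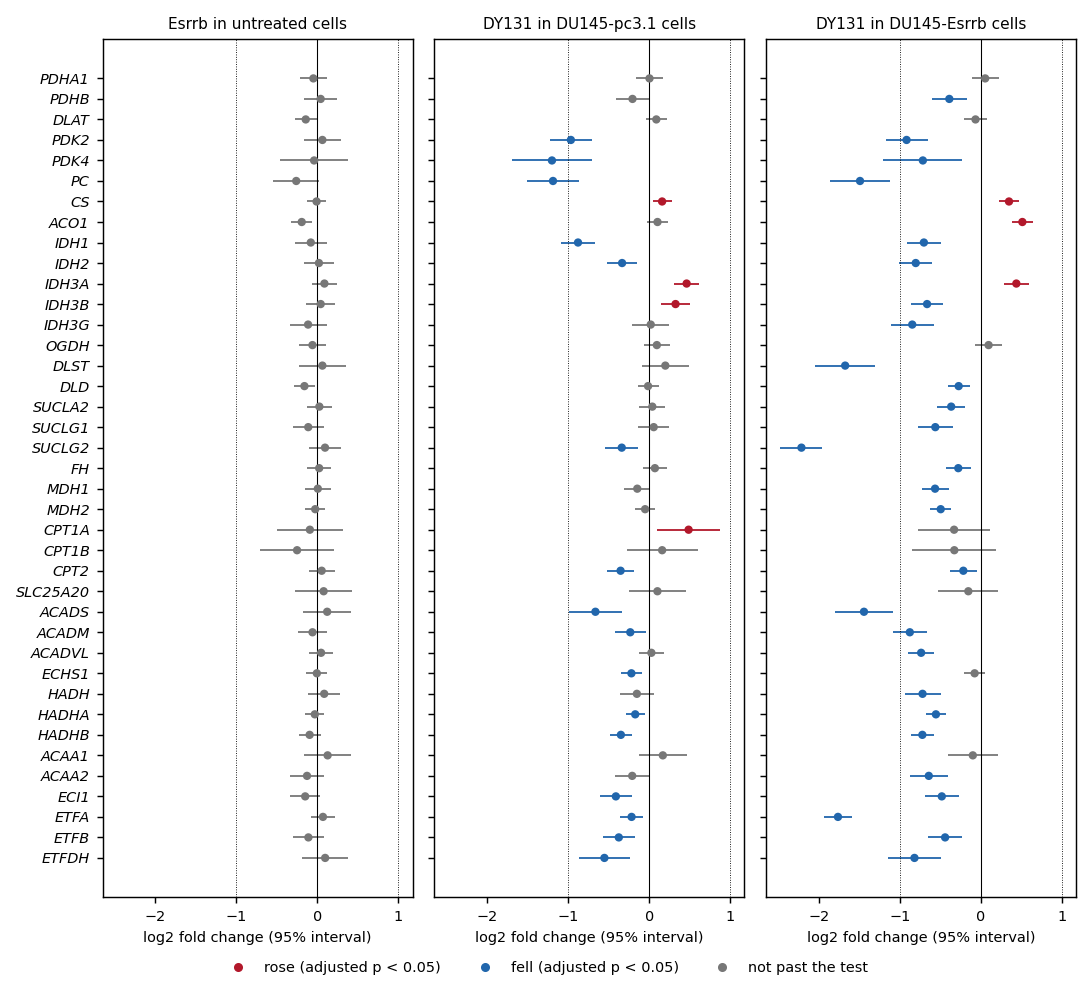
Log2 fold change (points) with its 95% interval (lines) of each of the 39 genes, for Esrrb in untreated cells (left), DY131 in DU145-pc3.1 cells (middle) and DY131 in DU145-Esrrb cells (right). Red and blue mark genes that rose or fell at an adjusted p under 0.05, which were 0 and 0, 4 and 16, and 3 and 28, and dotted lines mark 2-fold.

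DY131 in DU145-pc3.1 cells was accompanied by lower pyruvate dehydrogenase kinases and pyruvate carboxylase. There were falls of 6 of 10 beta-oxidation genes and of all 3 electron transfer flavoprotein genes. The 16 TCA cycle genes, with 3 rises and 3 falls, were called about as often as all tested genes (37.5%, against 37.4%). Of the 39 genes, 4 rose and 16 fell at an adjusted p under 0.05 (51.3%, against 37.4% of all tested genes). Of all tested genes, 18.9% rose and 18.5% fell. The median Log2FC of the 39 genes was -0.1467, and that of all tested genes -0.0026. PC and PDK4 also fell by more than 2-fold, as did 3.16% of all tested genes. The count of 20 became 12 without replicate 1 of DU145-pc3.1 and 12 without its replicate 2, and the count past 2-fold became 4 without replicate 2 of DU145-pc3.1+DY131. The latter group had the widest spread, with a chi-square per degree of freedom of 7.51 between its replicates, against 1.31 to 2.7 in the other groups.

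Among genes of pyruvate entry, 3 of 6 fell (18.5% of all tested genes did). PDK4 (chromosome 7 from 95583499 to 95596491, GRCh38) was at 2.43 and 2.38 cpm in DU145-pc3.1+DY131, both below the 4.86 and 6.16 cpm of DU145-pc3.1 (Log2FC -1.20, SE 0.23, adjusted p = 0.000823). PC (chromosome 11 from 66848233 to 66958376, GRCh38) encodes pyruvate carboxylase, which makes oxaloacetate from pyruvate, and dropped from 19.2 and 15.9 cpm to 7.19 and 8.23 cpm (Log2FC -1.18, SE 0.15, adjusted p = 2.22e-05). PDK2, the other pyruvate dehydrogenase kinase of the list, went from 25.1 and 25.1 cpm to 12.0 and 13.7 cpm (Log2FC -0.96, SE 0.12, adjusted p = 1.79e-05). Its value carries an uncertainty, because 42.74% of its exon length lies opposite exons of SAMD14 and the strand setting of the counting is not stated. The subunits of the pyruvate dehydrogenase complex itself, PDHA1, PDHB and DLAT, did not pass the test, with Log2FC of 0.00, -0.21 and 0.09.

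Of the 16 TCA cycle genes, CS, IDH3A and IDH3B rose, IDH1, IDH2 and SUCLG2 fell, and 10 did not pass the test. The share called was 37.5%, against 37.4% of all tested genes. IDH3A (chromosome 15 from 78131498 to 78171949, GRCh38) went from 74.1 and 75.8 to 96.3 and 110 cpm (Log2FC 0.46, SE 0.07, adjusted p = 0.000132). All DY131-treated libraries were above all untreated ones for this gene, but 63.18% of its exon length lies opposite exons of ACSBG1. CS (chromosome 12 from 56271699 to 56300392, GRCh38) had 390 and 403 cpm after treatment (Log2FC 0.16, SE 0.06, adjusted p = 0.0334), and this small rise did not pass the test when either DU145-pc3.1 replicate was left out (adjusted p = 0.114 and 0.126), nor without replicate 1 of DU145-Esrrb or 1 of the DU145-Esrrb+DY131 columns (adjusted p = 0.0511 to 0.054). SUCLG2 went from 49.6 and 51.2 to 35.3 and 44.6 cpm (Log2FC -0.34, SE 0.10, adjusted p = 0.012), and did not pass the test without replicate 2 of DU145-pc3.1 (adjusted p = 0.077) or replicate 1 of DU145-pc3.1+DY131 (adjusted p = 0.142). IDH1, the cytosolic NADP-dependent enzyme, fell from 156 and 149 to 72.3 and 93.9 cpm (Log2FC -0.88, SE 0.10, adjusted p = 7.52e-06). IDH2, its mitochondrial counterpart, had a Log2FC of -0.33.

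In fatty acid oxidation, CPT1A rose, and CPT2, ACADS, ACADM, ECHS1, HADHA, HADHB, ECI1 and the 3 electron transfer flavoprotein genes fell. CPT1A (chromosome 11 from 68754620 to 68844410, GRCh38) was at 31.6 and 19.4 cpm in DU145-pc3.1+DY131 (Log2FC 0.49, SE 0.18, adjusted p = 0.0472). One of these libraries was far above the untreated range and the other slightly above it. Without the first of them the Log2FC was 0.10 with an adjusted p of 0.63 by edgeR, and without any 1 of the 6 libraries of the other groups the adjusted p was 0.0502 to 0.203. ACADS (chromosome 12 from 120725735 to 120740008, GRCh38), the short-chain acyl-CoA dehydrogenase, fell from 17.3 and 15.8 to 9.43 and 11.5 cpm (Log2FC -0.66, SE 0.15, adjusted p = 0.00294). ACADM (chromosome 1 from 75724347 to 75787575, GRCh38) had 51.3 and 63.0 cpm (Log2FC -0.23, SE 0.09, adjusted p = 0.0494), and without the first treated replicate its Log2FC was -0.08 (adjusted p = 0.464), while without any 1 of the 6 libraries of the other groups the adjusted p was 0.0671 to 0.163. ETFA, ETFB and ETFDH, which carry electrons from acyl-CoA dehydrogenases to ubiquinone, had Log2FC of -0.22, -0.37 and -0.55. The fall of ETFA did not pass the test without replicate 1 or replicate 2 of DU145-pc3.1 (adjusted p = 0.08 and 0.104), or without replicate 1 of DU145-pc3.1+DY131 (adjusted p = 0.131).

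**Figure D3:**
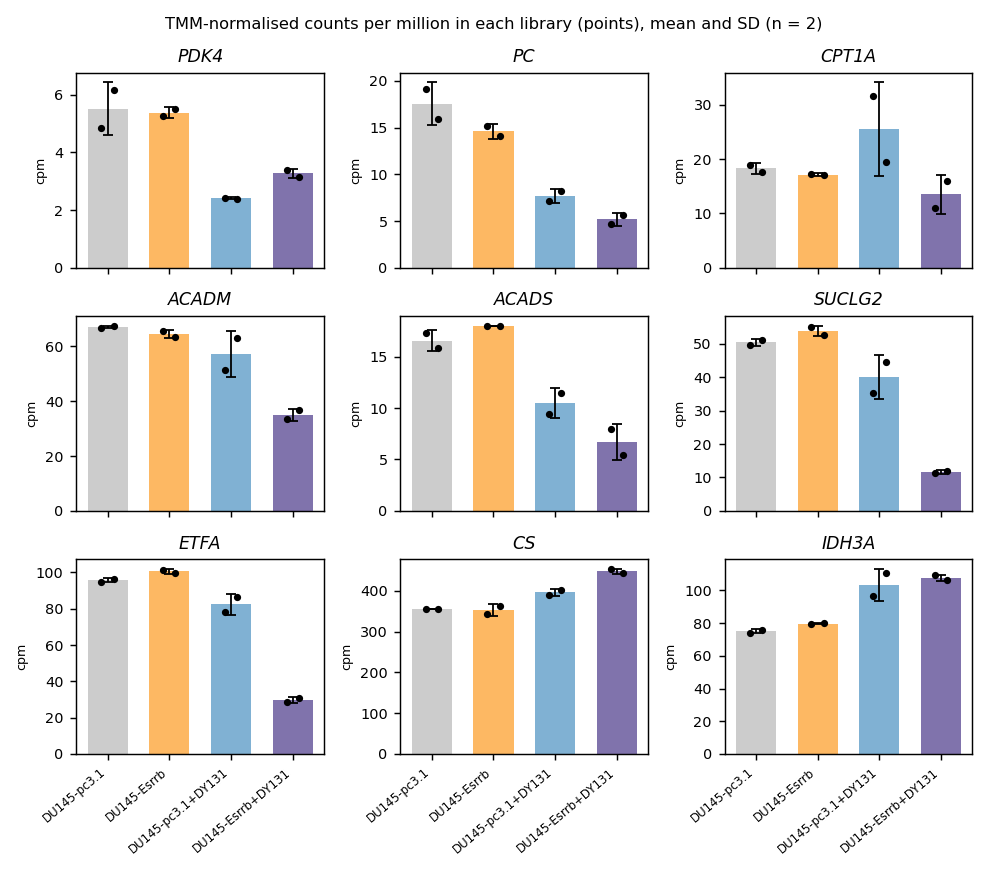
TMM-normalized cpm of 9 genes in the 4 groups. Points are the 2 libraries of a group, bars their mean and lines the SD (n = 2). PC, ACADS, SUCLG2 and ETFA were lowest in DU145-Esrrb+DY131, PDK4 in DU145-pc3.1+DY131, and CS was highest in DU145-Esrrb+DY131.

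DY131 in DU145-Esrrb cells was accompanied by lower levels of most of these genes, with at least 1 fall in each role. Of the 39 genes, 28 fell and 3 rose (79.5% called, against 58.7% of all tested genes, of which 29.5% fell and 29.2% rose). The median Log2FC was -0.5567, compared with -0.0045 for all tested genes. SUCLG2, ETFA, DLST, PC and ACADS fell by more than 2-fold, as 9.04% of all tested genes did, and none of the 39 rose by as much. With the offset for exon junctions, 21 of the 39 fell and 4 rose (53.1% of all tested genes were called), and the median was -0.26. Among the 31 genes called without the offset, 24 were called in the same direction with it, and the 7 falls that were not called with it were those of ACADVL, DLST, ECI1, FH, IDH3B, IDH3G and PDHB.

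Of the 16 TCA cycle genes, 12 fell and 3 rose, and with the offset 8 fell and 4 rose. Of all tested genes, 29.5% fell and 29.2% rose, and with the offset 27.6% fell and 25.4% rose. SUCLG2 (chromosome 3 from 67360460 to 67654614, GRCh38), the GDP-forming beta subunit of succinyl-CoA ligase, went from 55.0 and 52.7 cpm in DU145-Esrrb to 11.2 and 12.0 cpm in DU145-Esrrb+DY131 (Log2FC -2.21, SE 0.12, adjusted p = 1.23e-09), which was 4.64-fold lower. Both treated libraries were far below all other libraries, and with the offset the Log2FC was -1.83. Of its 50-base windows, 26.9% also occur in the pseudogene SUCLG2P2. SUCLA2, the alternative ADP-forming beta subunit, had a Log2FC of -0.37 (-0.26 with the offset), and SUCLG1, the alpha subunit shared by both enzymes, had -0.56 (-0.35). DLST (chromosome 14 from 74881891 to 74903745, GRCh38), the E2 component of the oxoglutarate dehydrogenase complex, dropped from 16.4 and 18.7 to 4.82 and 6.10 cpm (Log2FC -1.67, SE 0.17, adjusted p = 1.01e-06). The table lists DLST under a short transcript of 563 bases in which 54.3% of the windows cross junctions, the highest share of the 39 genes, and with the offset the Log2FC was -0.39 (adjusted p = 0.0871). OGDH, the E1 component of that complex, did not pass the test (Log2FC 0.09), and DLD, its E3 component, fell (Log2FC -0.28). OGDH is also listed under a short transcript, of 1744 bases.

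The 3 subunits of NAD-dependent isocitrate dehydrogenase did not move together. IDH3A rose from 79.3 and 80.1 to 109 and 106 cpm (Log2FC 0.43, SE 0.07, adjusted p = 9.73e-05). IDH3B fell from 37.6 and 37.8 to 24.9 and 22.7 cpm, and IDH3G from 20.4 and 18.7 to 10.8 and 11.0 cpm (Log2FC -0.67 and -0.85). For each subunit the treated and untreated libraries did not overlap. The junction shares of IDH3B and IDH3G were 36.0% and 37.9%, against 12.0% for IDH3A, and with the offset neither fall passed the test (Log2FC -0.19 and -0.30). CS rose from 343 and 363 to 452 and 444 cpm (Log2FC 0.34, SE 0.06, adjusted p = 7.81e-05). ACO1, the cytosolic aconitase that doubles as an iron regulatory protein, rose from 105 and 101 to 149 and 145 cpm (Log2FC 0.51, SE 0.06, adjusted p = 3.9e-06). With the offset the rises of IDH3A, CS and ACO1 had Log2FC of 0.34, 0.35 and 0.45 and passed the test. MDH2 (chromosome 7 from 76048051 to 76067508, GRCh38) fell from 236 and 248 to 175 and 168 cpm (Log2FC -0.50, SE 0.06, adjusted p = 3.88e-06), and its Log2FC with the offset was -0.47.

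Of the 10 beta-oxidation genes, 8 fell (29.5% of all tested genes did), and with the offset 6 fell (27.6% of all tested genes did). ETFA (chromosome 15 from 76215355 to 76311472, GRCh38), the alpha subunit of the electron transfer flavoprotein, was at 102 and 99.4 cpm in DU145-Esrrb and 28.4 and 30.7 cpm after DY131, 3.39-fold lower (Log2FC -1.76, SE 0.08, adjusted p = 1.46e-10). Its partner ETFB and the ubiquinone oxidoreductase ETFDH had Log2FC of -0.44 and -0.82, and -0.71 and -0.79 with the offset. With a junction share of 24.1%, near the median of the group, ETFA still had a Log2FC of -1.63 with the offset. ACADS went from 18.0 and 18.0 to 7.95 and 5.42 cpm (Log2FC -1.44, SE 0.17, adjusted p = 3.46e-06), and ACADM from 65.5 and 63.3 to 33.4 and 36.6 cpm (Log2FC -0.88, SE 0.10, adjusted p = 1.81e-06). For both genes these libraries were below those of all other groups, with Log2FC of -1.33 and -0.80 after the offset. ACADVL, the very long-chain enzyme, fell from 365 and 356 to 217 and 215 cpm (Log2FC -0.74), but its share of 40.9% was the second highest of the group and the Log2FC with the offset was -0.07 (adjusted p = 0.392). HADHA and HADHB, the subunits of the trifunctional protein, had Log2FC of -0.56 and -0.72, and with the offset -0.25 and -0.23. ECHS1, an enoyl-CoA hydratase, and ACAA1, a peroxisomal thiolase, did not pass the test.

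Among carnitine shuttle genes, CPT2 fell by a small amount (Log2FC -0.22, SE 0.08, adjusted p = 0.0263, and Log2FC -0.47 with the offset) and the other 3 did not pass the test. CPT1A was at 10.9 and 16.0 cpm in DU145-Esrrb+DY131, below the 17.3 and 17.0 cpm of DU145-Esrrb (Log2FC -0.33, adjusted p = 0.184), and with the offset its Log2FC was 0.08 (adjusted p = 0.774). CPT1B values are uncertain, because 97.7% of its windows also occur in the readthrough gene CHKB-CPT1B. In pyruvate entry, PC had 4.69 and 5.65 cpm, the lowest of all groups (Log2FC -1.49, SE 0.17, adjusted p = 3.05e-06), and PDK4 had 3.39 and 3.16 cpm (Log2FC -0.72, SE 0.23, adjusted p = 0.0135). With the offset their Log2FC were -1.32 and -0.76. The fall of PDK4 did not pass the test by DESeq2 (adjusted p = 0.112), without replicate 2 of DU145-Esrrb (adjusted p = 0.0589), or without column 2 of DU145-Esrrb+DY131 (adjusted p = 0.0867).

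**Figure D4:**
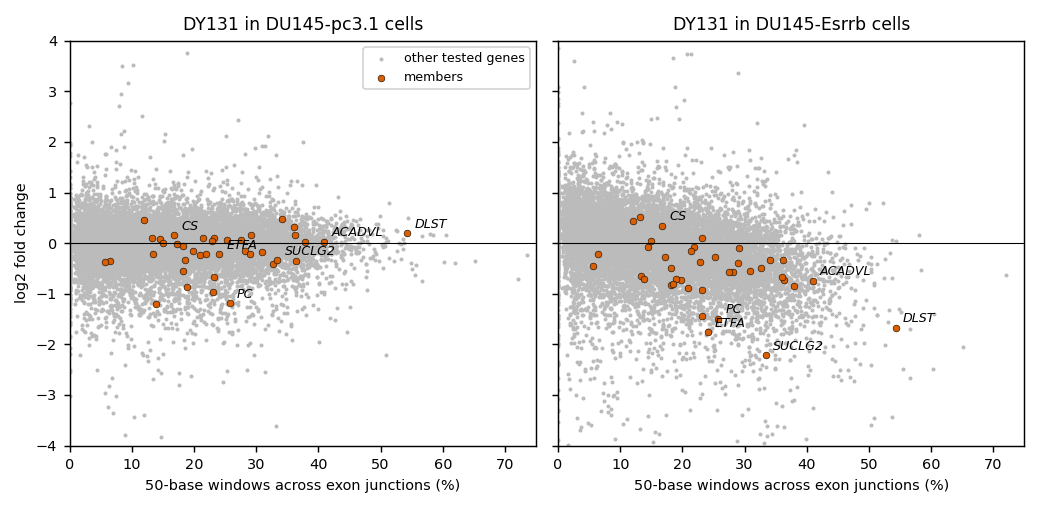
Log2 fold change with DY131 against the share of 50-base windows that span an exon junction, in DU145-pc3.1 cells (left) and in DU145-Esrrb cells (right). Grey points are other tested genes and orange points the 39 genes of the group. Spearman's correlation over all 13606 genes with a share was 0.0112 on the left and -0.375 on the right, and 4 and 79 genes lie beyond the plotted range of 4 on the log2 scale.

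Within the 39 genes, Spearman's correlation between the junction share and the Log2FC of DY131 in DU145-Esrrb cells was -0.414, and Pearson's r was -0.44. In DU145-pc3.1 cells these were 0.199 and 0.231. The points of one comparison share their libraries, so these are descriptions. The offset also moved values upward for some genes that had not passed the test, such as OGDH, which rose with it (Log2FC 0.21, adjusted p = 0.0362). How far exon structure and DY131 each enter the single values was not tested beyond this offset.

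**Figure D5:**
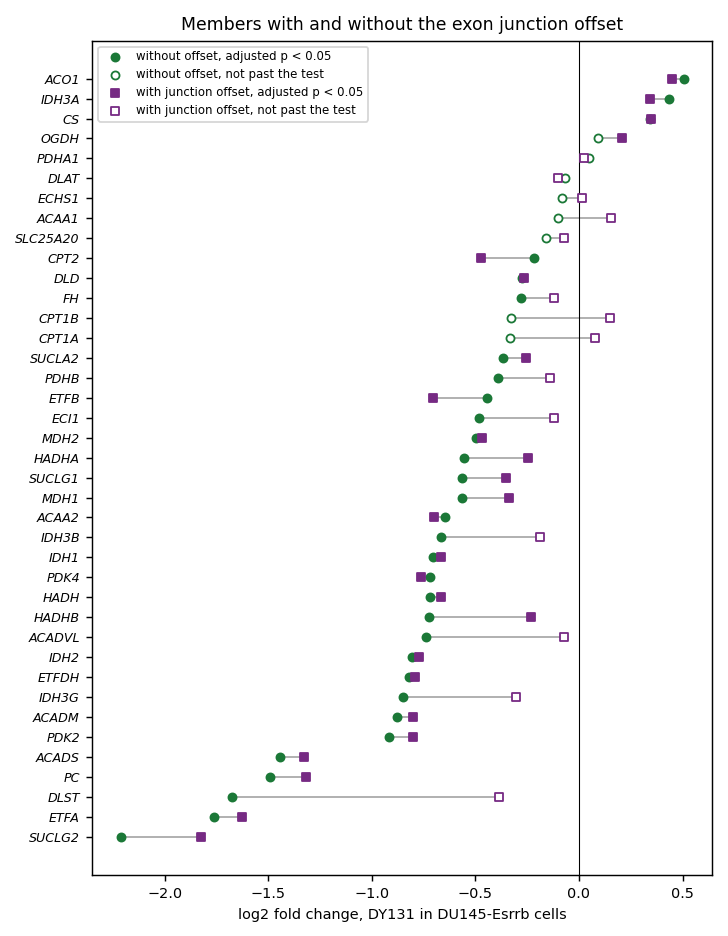
Log2 fold change of each of the 39 genes with DY131 in DU145-Esrrb cells, without (circles) and with (squares) the exon junction offset. Filled symbols mark an adjusted p under 0.05. SUCLG2, ETFA, PC and ACADS stay below -1, whereas DLST moves from -1.67 to -0.39 and ACADVL from -0.74 to -0.07.

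Under DY131, Esrrb was accompanied by lower rather than higher levels of these genes. In DU145-Esrrb+DY131 against DU145-pc3.1+DY131, 23 of 39 fell and 2 rose (64.1% called, against 50.4% of all tested genes, of which 25.3% fell and 25.1% rose). The rises were those of CS (Log2FC 0.18, SE 0.06, adjusted p = 0.0154) and ACO1 (Log2FC 0.21, SE 0.06, adjusted p = 0.00765). The median Log2FC was -0.4131, against 0.0082 for all tested genes. With the junction offset, 16 fell and 2 rose (46.2%, against 38.7% of all tested genes), of which 16 in all were called in the same direction without it, and the median was -0.1665. The rises with the offset were those of CS and of ECHS1 (Log2FC 0.23, adjusted p = 0.00803), while that of ACO1 no longer passed the test (Log2FC 0.15, adjusted p = 0.055). DLST, SUCLG2 and ETFA were more than 2-fold lower (Log2FC -1.81, -1.78 and -1.48), as were 6.06% of all tested genes, and with the offset they were at -0.58, -1.38 and -1.33. The count past 2-fold was 5 without replicate 2 of DU145-pc3.1+DY131. CPT1A was 1.88-fold lower in DU145-Esrrb+DY131 (Log2FC -0.91, SE 0.20, adjusted p = 0.00144), with a Log2FC of -0.48 and an adjusted p of 0.0628 after the offset. PDK4 had a positive value that did not pass the test (Log2FC 0.44, SE 0.27, adjusted p = 0.188). The rise of CS did not pass the test when either DU145-Esrrb+DY131 column was left out (adjusted p = 0.114 and 0.0744).

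The response to DY131 differed between DU145-Esrrb and DU145-pc3.1 cells for 21 of the 39 genes (53.8%), by the interaction term of the same model, as it did for 33.7% of all tested genes (16.1% more positive and 17.6% more negative in DU145-Esrrb). It was more negative in DU145-Esrrb for 20 of them and more positive for ACO1 (Log2FC 0.41, SE 0.09, adjusted p = 0.00203). The differences past 2-fold, all negative as in 4.74% of all tested genes, were those of SUCLG2 (Log2FC -1.88, SE 0.16, adjusted p = 5.61e-07), DLST (Log2FC -1.87, SE 0.22, adjusted p = 1.93e-05) and ETFA (Log2FC -1.55, SE 0.11, adjusted p = 5.4e-08). Their number was 5 without replicate 2 of DU145-pc3.1+DY131 and 5 without column 1 of DU145-Esrrb+DY131. With the junction offset 11 genes were still called, all in the same direction (28.2%, against 22.4% of all tested genes), and SUCLG2, DLST and ETFA had interaction values of -1.48, -0.70 and -1.40. By role and without the offset, 12 of 16 TCA cycle genes, 7 of 10 beta-oxidation genes, 1 of 4 carnitine shuttle genes and 1 of 3 electron transfer flavoprotein genes differed. With the offset, these were 7 of 16 (43.8%), 3 of 10 (30%), 0 of 4 and 1 of 3 (33.3%), against 22.4% of all tested genes. The 6 genes of pyruvate entry ran from -0.31 for PC to 0.48 for PDK4 (95% intervals -0.81 to 0.20 and -0.23 to 1.19) and did not pass the test. This comparison shares its libraries with those above, so its counts are not separate evidence.

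A second list of 42 genes of the same pathways, outside the 40, was described in the same way. With Esrrb alone, 2 of the 42 were called (4.76%, against 4.18% of all tested genes), both lower. They were PCK2, the mitochondrial phosphoenolpyruvate carboxykinase (Log2FC -0.33), and HSD17B4, the peroxisomal multifunctional enzyme (Log2FC -0.28). With DY131 in DU145-pc3.1 cells, 2 rose and 15 fell (40.5%, against 37.4%). PCK2 went from 48.2 and 45.8 to 15.4 and 14.1 cpm (Log2FC -1.67, SE 0.10, adjusted p = 1.61e-08), the lowest value of the list. With DY131 in DU145-Esrrb cells, 5 rose and 25 fell (71.4%, against 58.7%), with a median Log2FC of -0.4959. With the junction offset, 4 rose and 22 fell (61.9%, against 53.1%), and the median was -0.3229. SDHB, the iron-sulfur subunit of succinate dehydrogenase, fell from 68.9 and 71.8 to 20.9 and 26.7 cpm (Log2FC -1.56, SE 0.11, adjusted p = 1.43e-08), whereas SDHC, a membrane anchor of the same complex, rose slightly (Log2FC 0.17, SE 0.06, adjusted p = 0.0142). PCCA and PCCB, which form propionyl-CoA carboxylase, had Log2FC of -1.90 and -1.21, and DECR1, the mitochondrial dienoyl-CoA reductase, had -1.32. With the offset, SDHB had -1.24, SDHC 0.19, PCCA -1.04, PCCB -0.64 and DECR1 -0.77 as Log2FC, and all 5 passed the test. The junction shares of PCCA, PCCB and DECR1 were 45.6%, 38.5% and 38.1%, above the median of all tested genes. Under DY131, 8 of the 42 were higher and 15 lower in DU145-Esrrb (54.8%, against 50.4%), and with the offset 7 and 15 (52.4%, against 38.7%). The interaction passed the test for 7 upward and 14 downward (50%, against 33.7%), and with the offset for 4 and 10 (33.3%, against 22.4%). It passed 2-fold downward for 5 of the 42, which were ABCD3, a peroxisomal transporter (Log2FC -3.17), SDHB (-1.58), DECR1 (-1.45), HSD17B4 (-1.19) and PCCA (-1.10). With the offset these values were -2.35, -1.25, -0.90, -0.55 and -0.28, of which that of PCCA did not pass the test. ABCD3 is listed under a short transcript of 884 bases, with a junction share of 45.5%. PCK2 was the gene past 2-fold upward (Log2FC 1.11, SE 0.14, adjusted p = 2.62e-05, and Log2FC 1.10 with the offset), with 36.5 and 38.3 cpm in DU145-Esrrb and 26.4 and 24.3 cpm after DY131.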

How the data were processed

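RNA of 8 libraries (stranded mRNA kit, single reads of 50 bases) was analysed. After trimming and filtering with the FASTX-Toolkit, the authors aligned reads to hg18 by TopHat2 and deposited raw counts per gene from MULTICOM-MAP, without normalization. Treatment of strand and of reads with several matches is not given in the sources used here. Both DU145-Esrrb+DY131 columns carry one heading and are called columns 1 and 2. The 13856 genes that reached 1 cpm in 2 or more libraries were fitted over all 8 libraries with edgeR 4.0.16 (limma 3.58.1, R 4.3.3), using TMM scaling and the quasi-likelihood F test, and p-values were adjusted by the Benjamini-Hochberg method over all tested genes. Genes rose or fell at an adjusted p under 0.05, and 2-fold means an absolute Log2FC of at least 1. The study used the exact test of edgeR, which was run as an alternative, as was DESeq2 1.42.0. Counts per library of 7858743 to 11551690 set the precision, and cpm use TMM-scaled library sizes. Gene structure came from GENCODE 29 on GRCh38, not from hg18 (22019 of 23391 genes matched by RefSeq identifier, 722 by symbol and 650 not matched). The junction offset fits, in each library, a smooth curve of the log ratio to the mean against the share of windows across junctions. Steps were tested on simulated counts. The replicate numbers of the titles do not pair the libraries.

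The 40 genes, the 42 further pathway genes, the regulators and the markers were chosen with earlier results of these data known. Genes described in full were those past both thresholds in any comparison and PDK4, CPT1A, ACADM, CS, IDH3A and MDH2, and the others were given by role. Alternatives were other scalings, filters and tests, only the libraries compared, offsets for exon junctions or for transcript length and GC content, a replicate block, and leaving out each library.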

Additional observations from a re-analysis of the deposited data

Results flagged for a closer look

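The response to DY131 differed between DU145-Esrrb and DU145-pc3.1 cells for 21 of the 39 genes (53.8%), against 33.7% of all tested genes. This rests on the interaction term of edgeR's quasi-likelihood test, adjusted over all tested genes. A negative value means that the log2 fold change with DY131 was lower in DU145-Esrrb than in DU145-pc3.1 cells. In the TCA cycle the differences were 0.41 for ACO1, -0.47 for IDH2, -0.99 for IDH3B, -0.87 for IDH3G, -1.87 for DLST and -0.26 for DLD. For the later steps of the cycle they were -0.41 for SUCLA2, -0.62 for SUCLG1, -1.88 for SUCLG2, -0.35 for FH, -0.42 for MDH1 and -0.45 for MDH2. In fatty acid oxidation they were -0.82 for CPT1A, -0.78 for ACADS, -0.65 for ACADM, -0.77 for ACADVL and -0.57 for HADH. They were -0.38 for HADHA, -0.38 for HADHB, -0.44 for ACAA2 and -1.55 for ETFA. The difference for ACADS did not pass the test without replicate 2 of DU145-pc3.1 (adjusted p = 0.0603) or column 2 of DU145-Esrrb+DY131 (adjusted p = 0.14). That for CPT1A did not pass it when 1 replicate of DU145-pc3.1, 1 replicate of DU145-Esrrb, replicate 1 of DU145-pc3.1+DY131 or column 1 of DU145-Esrrb+DY131 was left out (adjusted p = 0.0611 to 0.177). IDH3B rose with DY131 in DU145-pc3.1 cells (Log2FC 0.32) and fell in DU145-Esrrb cells (Log2FC -0.67). In DU145-Esrrb+DY131 libraries, levels also moved with exon junctions. With the offset for them, 11 of the 21 were called (28.2% of the 39 genes, against 22.4% of all tested genes). The 10 that were not called with it were SUCLA2 (-0.29), SUCLG1 (-0.39), IDH3G (-0.32), FH (-0.18), MDH1 (-0.17), CPT1A (-0.40), ACADS (-0.66), ACADVL (-0.11), HADHA (-0.06) and HADHB, whose value turned positive (0.12).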

How the results depend on the processing

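Of the 55 results for 11 genes described in full, 39 kept their side of the threshold under every alternative. Of these, 32 also kept their sign and 7, which were not called, changed it, while no called value changed sign. With Esrrb alone, 1 of the 39 genes was called when only the 4 libraries compared were fitted, and 0 to 2 when 1 library was left out. For DY131 in DU145-pc3.1 cells, leaving out 1 library gave 12 to 23 called genes and 2 to 4 past 2-fold. For Esrrb in DY131-treated cells, 3 to 5 were past 2-fold without 1 library. For the interaction, 11 were called with the junction offset in place of 21, and 3 to 5 were past 2-fold without 1 library. Adding the replicate block to the fit of the 6 numbered libraries, 0 genes were called with Esrrb alone (0 without the block) and 19 with DY131 in DU145-pc3.1 cells (17 without it). Deviations of same-numbered libraries had correlations of -0.0685 to 0.0917, so the numbers were not taken as pairs. Over all tested genes, the 579 called with Esrrb alone became 317 with DESeq2, 948 without the filter, 1209 with only the 4 libraries and 140 to 1523 without 1 library. The 4674 genes of the interaction became 2897 with DESeq2 and 3110 with the junction offset. At least 10 counts in every library reduced those past both thresholds from 580 to 315 for DY131 in DU145-pc3.1 cells, from 1666 to 1090 in DU145-Esrrb cells and from 1137 to 721 for Esrrb under DY131. The cause of these differences was not tested. Low counts limit PDK4, CPT1B, SLC25A20 and ETFDH, and ACADL was left out of the main fit by the minimum of 1 cpm in 2 libraries.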

Other observations

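Regulators of these pathways were listed with the enzymes. ESRRA, the estrogen-related receptor with the broadest role in energy metabolism, was at 41.9 and 41.1 cpm in DU145-pc3.1 and 41.6 and 44.1 cpm in DU145-Esrrb. Its levels of 44.6 and 41.5 cpm in DU145-pc3.1+DY131 and 44.6 and 42.0 cpm in DU145-Esrrb+DY131 overlapped with these, and its Log2FC lay between 0.00 and 0.06 in the comparisons between groups. PPARGC1A, the coactivator PGC-1alpha, had 0 and 0 counts in DU145-pc3.1, 0 and 1 in DU145-Esrrb, 1 and 0 in DU145-pc3.1+DY131 and 2 and 0 in DU145-Esrrb+DY131. PPARGC1B, its relative PGC-1beta, rose with DY131 from 6.10 and 6.60 to 19.1 and 15.3 cpm in DU145-pc3.1 cells (Log2FC 1.43, SE 0.16, adjusted p = 7.54e-06), and from 5.43 and 5.61 to 13.8 and 11.5 cpm in DU145-Esrrb cells (Log2FC 1.19, SE 0.18, adjusted p = 3.44e-05). PPRC1, the third member of that coactivator family, rose as well (Log2FC 0.45 and 0.70). The interaction did not pass the test for either coactivator (adjusted p = 0.475 and 0.0525). PPARA, a nuclear receptor that drives fatty acid oxidation in liver, fell with DY131 in DU145-Esrrb cells (Log2FC -0.82, SE 0.16, adjusted p = 0.000464). PPARD rose there (Log2FC 0.44, SE 0.08, adjusted p = 0.000226), and PPARG had a Log2FC of -0.02, which did not pass the test. With the junction offset, the Log2FC in DU145-Esrrb cells were 1.19 for PPARGC1B, 0.61 for PPRC1, -1.07 for PPARA and 0.31 for PPARD, all past the test, and the interaction of PPARA passed it as well (Log2FC -0.75, adjusted p = 0.0249, against 0.102 without the offset). ESRRB, the transgene, also rose with DY131 in DU145-Esrrb cells (Log2FC 0.74 with the offset, SE 0.19, adjusted p = 0.00353). It was called without the offset as well. The part of these regulators in the levels of the enzymes was not tested.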
